A study of Mus musculus with 4 samples.

Results

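The collagen genes are the subject here, 36 of the 18193 genes that the array annotation names, read by 69 of its 34945 probe sets with 1 gene symbol. A probe set is a group of short probes that measures 1 transcript on the array. The members were taken by symbol from a fixed list of collagen genes, and the rule that picks them uses no measured value. The list itself was proposed with earlier results of these data known, so it is not independent of them. The platform names 6 further collagen genes that are not on the list and are not described.

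Total RNA of immortalized brown preadipocytes, cells that give rise to brown fat, was hybridized to 4 Affymetrix mouse arrays. All cells were of strain mixed C57/BL6-129 and carried floxed alleles of G9a (G9af/f), the gene of a histone H3 lysine 9 methyltransferase. The control group received the vector (Vec, labelled wild type) and the other group received Cre recombinase (Cre, labelled as the knockout of G9a), with 2 arrays in each group, numbered 1 and 2. The labels give no time after Cre, no vector and no deleted exon, and name no separate cultures within a group. The p-values therefore measure only the spread between these arrays, and whether it holds separate experiments is not stated. Arrays 1 and 2 of each group differed in the sex-linked genes Xist and Eif2s3y, given below, so the numbers are not taken as 1 line. The study asked how loss of G9a changes gene expression in these cells.

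Collagens are extracellular proteins built from 3 chains that wind into a helix, and each gene encodes 1 chain. Fibrillar collagens form the banded fibres of connective tissue, type IV collagens form the sheet of the basement membrane, and types XV and XVIII attach to that membrane. Type VI and type VIII collagens form filaments and networks, FACIT collagens sit on the surface of fibrils, and transmembrane collagens span the cell membrane. Preadipocytes are mesenchymal cells that make much fibrillar collagen, and the matrix is remodelled when they become adipocytes.

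All 4 arrays had been scaled to a mean of 500 after trimming, and array medians ran from 50.6 to 78 signal units. Ehmt2, which encodes G9a, read 2682 and 2688 in the vector arrays and 953 and 912 in the Cre arrays. Of the preadipocyte markers, 6 of the 7 named on the array passed the level filter, 3 with a positive difference and 3 with a negative one, and 0 passed in either model. Zfp423 was between 2.1 and 3.8 units. The summed signal of these markers was 10859 and 11721 in the vector arrays and 8188 and 12087 in the Cre arrays. After quantile normalization Pdgfra, Cd34 and Dlk1 lay lower in both Cre arrays than in both vector arrays, which on the deposited scale held for Dlk1 alone, while Pdgfrb differed by 0.40. Dlk1 read 5421 and 5238 units in the vector arrays and 1690 and 4882 in the Cre arrays. Its difference was -1.72 in number 1 and -0.115 in number 2, so it was large in number 1 alone. Of the 5 mature adipocyte markers, 2 passed the filter, and their summed signal was 615 and 1163 against 1600.0 and 2047. Fabp4, a fatty acid binding protein gene of adipocytes, read 186 and 112 units against 908 and 1120. It rose with the replicate number as a block (difference 2.65, limma adjusted p = 0.000104). Lpl, the other one above the filter, read 400 and 1034 against 655 and 883. Its difference was 0.73 in number 1 and -0.18 in number 2, without a call. Adipoq and Ucp1 stayed at or below 21.8 units. The 6 leukocyte markers summed to 300 and 378 against 482 and 417. Csf1r (0.355) and Cd68 (0.25) passed the filter without a call, and Ptprc read 2.9 to 11.9 units. Of 5 epithelial markers (407 and 420 against 1056 and 502), 4 passed the filter. Krt18 alone rose with the replicate number as a block (difference 1.58, limma adjusted p = 0.0213). Krt8 read 34.9 and 84.7 against 144 and 26.8, a difference of 1.52 in number 1 and -1.28 in number 2. Epcam differed by 0.37 and -0.05, and Krt5 by 0.19 and 0.46. Endothelial markers passed the filter in 0 of 5 cases and summed to 138 and 79.8 against 325 and 156. The part of these markers in the collagen differences was not tested. Arrays of different number differed more than arrays of 1 number did: Xist read 11049 and 9810 units in number 1 and 41.8 and 58 in number 2. The Y-linked gene Eif2s3y read 141 and 228 units in number 1 and 1127 and 1265 in number 2. In such bulk RNA, fewer cells of a type and less RNA per cell cannot be told apart.

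The stretches of DNA before the starts of the 3 collagen genes with the largest differences, and of 2 abundant fibrillar genes for comparison, are given first, because the results turn on these genes. Each is the 250 bases before a start annotated by RefSeq (GRCm38.p6), 5′ to 3′ on the strand of the gene, with 3 promoter motifs in capitals wherever they lie on either strand. The GC box is searched as GGGCGG, the CAAT box as CCAAT and the TATA box as TATAAA, and no 2 of them overlap in these windows. Col18a1 has a pair of starts on chromosome 10, at chr10:77166531-77166780 and chr10:77113706-77113955 on the minus strand, listed in that order. Col15a1 is at chr4:47207762-47208011 on the plus strand, Col5a3 at chr9:20815068-20815317 on the minus strand, Col1a2 at chr6:4505368-4505617 on the plus strand and Col3a1 at chr1:45311288-45311537 on the plus strand.
Col18a1 upstream start: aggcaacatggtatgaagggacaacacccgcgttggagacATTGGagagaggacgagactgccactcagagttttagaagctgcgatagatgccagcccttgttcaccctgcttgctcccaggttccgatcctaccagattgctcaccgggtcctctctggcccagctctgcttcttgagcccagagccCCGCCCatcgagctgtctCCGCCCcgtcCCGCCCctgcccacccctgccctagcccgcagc
Col18a1 downstream start: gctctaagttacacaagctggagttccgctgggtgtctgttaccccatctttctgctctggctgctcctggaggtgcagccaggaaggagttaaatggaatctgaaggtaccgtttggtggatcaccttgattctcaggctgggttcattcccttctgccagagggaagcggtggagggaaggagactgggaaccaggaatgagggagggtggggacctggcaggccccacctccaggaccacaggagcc
Col15a1: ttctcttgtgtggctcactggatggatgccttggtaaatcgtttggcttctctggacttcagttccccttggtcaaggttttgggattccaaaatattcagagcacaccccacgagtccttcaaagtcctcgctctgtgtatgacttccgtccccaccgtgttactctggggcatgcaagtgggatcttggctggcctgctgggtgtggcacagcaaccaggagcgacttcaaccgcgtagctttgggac
Col5a3: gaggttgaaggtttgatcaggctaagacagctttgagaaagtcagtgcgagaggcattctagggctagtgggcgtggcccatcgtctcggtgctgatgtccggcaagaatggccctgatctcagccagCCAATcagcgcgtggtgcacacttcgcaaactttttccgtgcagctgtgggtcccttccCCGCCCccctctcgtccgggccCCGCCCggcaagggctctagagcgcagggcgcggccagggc
Col1a2: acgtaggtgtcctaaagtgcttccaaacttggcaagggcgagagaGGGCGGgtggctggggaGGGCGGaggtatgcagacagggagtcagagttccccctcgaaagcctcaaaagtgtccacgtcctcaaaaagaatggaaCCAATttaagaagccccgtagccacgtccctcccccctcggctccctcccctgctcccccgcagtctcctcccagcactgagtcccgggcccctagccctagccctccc
Col3a1: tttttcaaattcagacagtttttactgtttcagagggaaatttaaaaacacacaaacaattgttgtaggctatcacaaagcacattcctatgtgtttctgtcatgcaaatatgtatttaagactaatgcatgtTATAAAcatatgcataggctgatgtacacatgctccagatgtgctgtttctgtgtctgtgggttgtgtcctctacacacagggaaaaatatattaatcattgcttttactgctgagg

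In these letters the upstream start of Col18a1 has the GC box at 3 places and the CAAT box at 1, and 12 CpG dinucleotides, while the downstream start has none of the 3 motifs and 3 CpG dinucleotides. Col15a1 has none of the motifs and 8 CpG dinucleotides, and Col5a3 has the GC box at 2 places, the CAAT box at 1 and 17 CpG dinucleotides. Col1a2 has the GC box at 2 places and the CAAT box at 1, and Col3a1 has the TATA box alone and 0 CpG dinucleotides. No motif of the 3 stands in a window of each of Col18a1, Col15a1 and Col5a3. Of the 36 genes, 29 have a start in the table, with 32 windows in all. The GC box stood in 19 of them, the CAAT box in 12 and the TATA box in 5, against 32.7%, 33.8% and 12.4% of all 32851 windows of this length. The median collagen window held 10 CpG dinucleotides, from 0 (Col3a1) to 31 (Col4a1), against a median of 6 over all windows. A match describes letters only, and no match says nothing about binding.

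Of the 36 genes, 23 passed the level filter, a mean level over all 4 arrays at or above the median probe set (about 60.6 signal units). These were 9 of 10 fibrillar, 6 of 8 basement membrane, 5 of 7 network and filament, 3 of 7 FACIT and 0 of 4 transmembrane genes. Each gene is described by its brightest probe set, and its other probe sets follow where they bear on the result. Differences are Cre minus vector of log2(signal + 16) after quantile normalization, and a fold on that scale understates the change of dim genes. Col4a6 lay just above the filter (by 0.02) and Col9a1 and Col23a1 just below it (by 0.53 and 0.59).

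Most collagen genes read higher in the Cre arrays. Without any filter, the difference was positive in both replicate numbers for 23 of the 36 genes (31.4% of all 18193 genes on the array) and negative in both for 3 (26.9%). Both Cre arrays lay above both vector arrays for 14 collagen genes (18.0% of all genes) and below both for 3 (13.6%). Among the 23 genes above the filter, the difference was positive in both numbers for 21, where 32.8% of all 11079 genes above the filter did so, and negative in both for 0 (30.2%). There the groups did not overlap for 12 collagen genes with Cre higher (17.5% of genes) and 0 with Cre lower (13.6%). On the deposited scale Col1a1, Col1a2 and Col6a1 joined the 12. The median difference of the 36 genes was 0.33 beside 0.02 over all genes on the array, and that of the 23 was 0.45 beside 0.01 over all genes above the filter. Without the Cre 1 array the median of the 23 was 0.23, and without the Cre 2 array it was 0.69. Among the 23, Col5a3, Col15a1 and Col18a1 lay at least 2-fold higher in both numbers, as did 1.44% of genes.

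Without the pairing of replicate numbers, 0 collagen genes passed a limma adjusted p of 0.05, as did 0.0% of all genes in either direction. At an unadjusted p under 0.05, 8 collagen genes were higher (3.8% of genes) and 0 lower (1.27%). With the replicate number as a block, called the paired model below, 9 collagen genes rose over all genes tested (3.25% of genes) and 0 fell (0.984%). They were Col3a1, Col5a1, Col5a3, Col27a1, Col15a1, Col18a1, Col6a2, Col8a1 and Col16a1. Leaving out 1 array, which unbalances the numbers, moved the difference by over 1.5 times for 5 of them. Without Cre 1 it was 0.246 for Col3a1, 0.21 for Col5a1, 0.63 for Col27a1, 0.31 for Col6a2 and 0.465 for Col16a1. Without Cre 2 the same genes gave 0.77, 0.69, 1.28, 0.80 and 1.13. Without vector 2 Col3a1 gave 0.071 and Col16a1 0.525, and without vector 1 Col3a1 gave 0.95. The paired model has 1 residual degree of freedom and borrows the rest of its precision from other probe sets, so calls near the threshold, such as Col5a1, are the least certain. Where a gene was read as the mean of its tested probe sets, chosen after seeing the data, 6 rose in the paired model (2.34% of genes) and 0 fell (0.641%): the risers were Col3a1, Col5a3, Col27a1, Col15a1, Col18a1 and Col16a1. With 2 arrays a group, the smallest two-sided p of an exact permutation test is 0.333, so none is given for single genes.

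**Figure D1:**
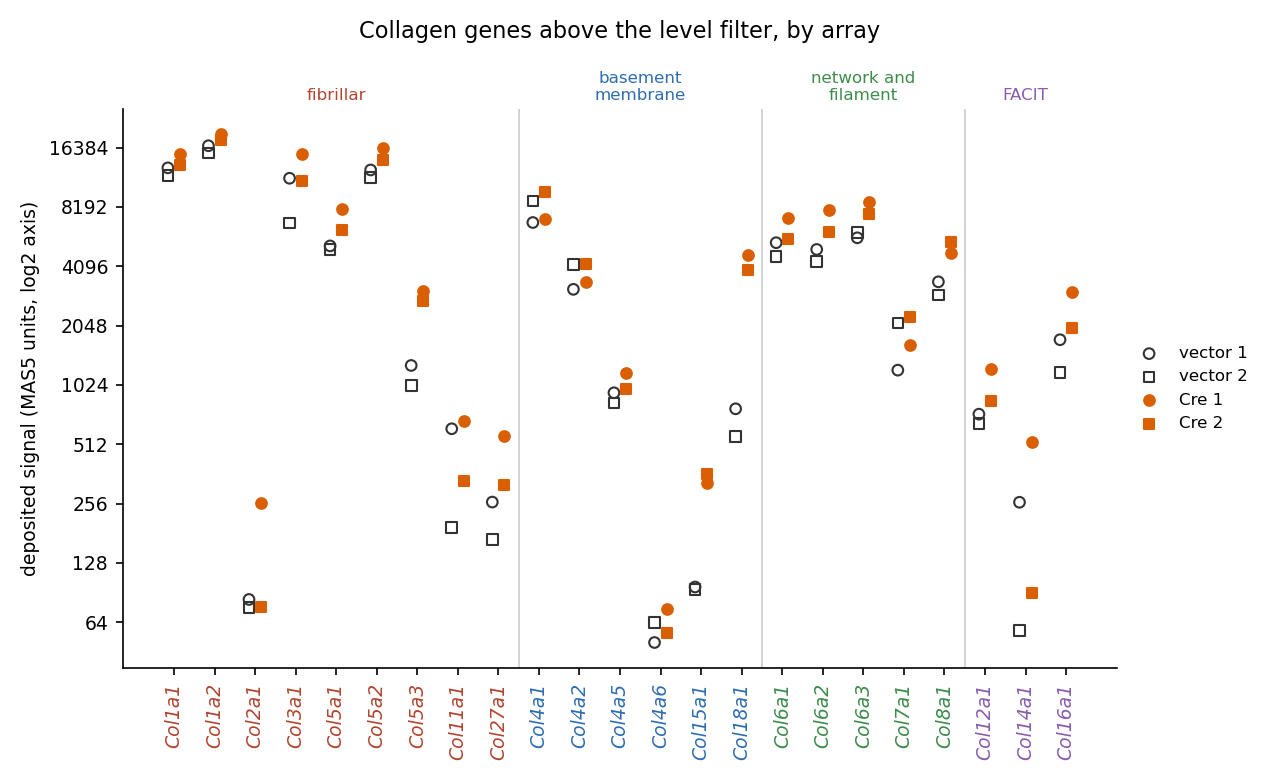
Deposited signal (log2 axis) of the brightest probe set of the 23 collagen genes above the level filter, in each of the 4 arrays, with genes ordered by class. Open symbols are vector arrays, filled symbols are Cre arrays, circles are number 1 and squares number 2. Only symbols within a gene can be compared, since probe sets differ in brightness for the same amount of RNA; the filled symbols stand clear of the open ones for Col5a3, Col15a1 and Col18a1.

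Among the basement membrane genes, types XV and XVIII differed most, and the type IV chains by 0.32 (Col4a5) or less. Col18a1, whose C-terminal fragment endostatin restrains blood vessel growth, read 774.5 and 559 units in the vector arrays and 4693 and 3922 in the Cre arrays. The Cre readings lay far above both controls, and the folds within numbers 1 and 2 were 6.38 and 6.42. The log2 difference was 2.68 ± 0.25 (SE, n = 2 against 2; 95% interval 2.08 to 3.28; limma adjusted p = 0.111). Col18a1 rose in the paired model (limma adjusted p = 4.58e-06). The second probe set of Col18a1, whose name marks a possible match to several transcripts, read 504 and 361 in the vector arrays and 2450.3 and 2447.9 in the Cre arrays, a difference of 2.47 ± 0.24.

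Col15a1, the closest relative of Col18a1, read 96.6 and 93.5 units in the vector arrays and 324 and 361 in the Cre arrays. The groups do not overlap, and the folds in numbers 1 and 2 were 2.98 and 3.18. The difference was 1.62 ± 0.27 (95% interval 0.956 to 2.29; limma adjusted p = 0.319), and Col15a1 rose in the paired model (limma adjusted p = 0.00234). It is read by a single probe set.

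Col4a1 and Col4a2, which encode the chains of the common type IV collagen and lie next to each other on chromosome 8, did not differ detectably. Col4a1 read 6826 and 8793 in the vector arrays and 7076 and 9702 in the Cre arrays, and Col4a2 read 3127 and 4185 against 3411 and 4189. For both genes the arrays parted by replicate number, with number 2 above number 1, and not by Cre. The difference was 0.06 (95% interval -0.34 to 0.46) for Col4a1 and 0.08 (-0.40 to 0.55) for Col4a2, so a rise of the size seen for Col15a1 lies outside both intervals. With median centring these differences turned to -0.012 and -0.045.

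The X-linked chain genes gave small differences. Col4a5 read 934 and 828 units in the vector arrays against 1177 and 977.5 in the Cre arrays, with no overlap (0.32 ± 0.23), and did not pass with pairing (limma adjusted p = 0.373). Its second probe set differed by 0.17. Col4a6 read 50.5 and 63.8 against 74.4 and 56.2 units, close to the filter, with differences of 0.24 and -0.19 in numbers 1 and 2. Col4a3 and Col4a4, chains of the kidney glomerular basement membrane, lay below the filter.

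Among fibrillar genes above the filter, the differences ran from 0.12 (Col1a2) to 1.35 (Col5a3) on their brightest probe sets. Col5a3, the third chain of type V collagen, read 1285 and 1019 units in the vector arrays and 3052 and 2732 in the Cre arrays. The groups stood well apart, with folds of 2.48 and 2.61 in numbers 1 and 2, and the difference was 1.35 ± 0.22 (95% interval 0.803 to 1.89; limma adjusted p = 0.319). Col5a3 rose in the paired model (limma adjusted p = 0.000457). Its second probe set, at 3 to 7.8 units and below the filter, differed by 0.11.

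The other type V chains, which set the diameter of collagen fibrils, lay higher by less. Col5a1 read 5193 and 4973 in the vector arrays and 8024 and 6259 in the Cre arrays, a difference of 0.45 ± 0.19 that passed in the paired model by a narrow margin (limma adjusted p = 0.0486). Its other probe sets differed by 0.27 and 0.76 and also kept the groups apart. Col5a2 read 12610.1 and 11526 against 16225 and 14152 units, a difference of 0.26 ± 0.13 (limma adjusted p = 0.0849 in the paired model), and its dimmer probe set differed by 0.71 and passed there (limma adjusted p = 0.0316).

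Col27a1, a fibrillar collagen of growing cartilage, read 260.5 and 168 units in the vector arrays and 565 and 319 in the Cre arrays. Both Cre readings exceeded both controls, and the folds were 2.17 and 1.73. The difference was 0.95 ± 0.31, with a limma adjusted p of 0.97 unpaired and 0.0263 paired. It was 1.20 on the second probe set, where the number 1 arrays both lay above the number 2 arrays.

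Col3a1, which encodes type III collagen of soft tissue, read 11445 and 6791 units in the vector arrays and 15277 and 11112 in the Cre arrays. The groups overlapped, because number 2 lay below number 1 (differences of -0.88 in the vector arrays and -0.53 in the Cre arrays). Within numbers 1 and 2 the folds were 1.26 and 1.61. The difference was 0.51 ± 0.31 without the pairing and 0.51 ± 0.09 with it (limma adjusted p = 0.0155), and the dimmer probe set gave 1.04 (limma adjusted p = 0.0113 in the paired model). Col3a1 and Col5a2 are next to each other on chromosome 1.

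Col1a1 and Col1a2, the chains of type I collagen, were among the members with small differences. Col1a1 read 12924 and 11848 units in the vector arrays and 15187 and 13361 in the Cre arrays, and Col1a2 read 16736 and 15374 against 19086 and 17959.6. As deposited, the Cre arrays lay above the vector arrays for both genes, but after quantile normalization the groups overlapped. The differences were 0.14 (95% interval -0.17 to 0.45) and 0.12 (-0.12 to 0.37), and neither passed with pairing (limma adjusted p of 0.387 and 0.398). Dimmer probe sets of Col1a1 (0.27) and Col1a2 (0.29 and 0.44) gave larger differences, none of which passed.

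Col11a1, a fibrillar chain shared by cartilage and other mesenchyme, read 613.5 and 193 units in the vector arrays and 675.5 and 334 in the Cre arrays, with the numbers further apart than the groups (0.42 ± 0.52). A second probe set differed by 1.10 and passed in the paired model (limma adjusted p = 0.0157), while the brightest did not (0.335). Col2a1, the main collagen of cartilage, read 83.5, 76.1 and 76.3 units in vector 1, vector 2 and Cre 2 and 258 in Cre 1. Only that 1 array was high, and the difference of 0.68 ± 0.45 did not pass in either model.

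**Figure D2:**
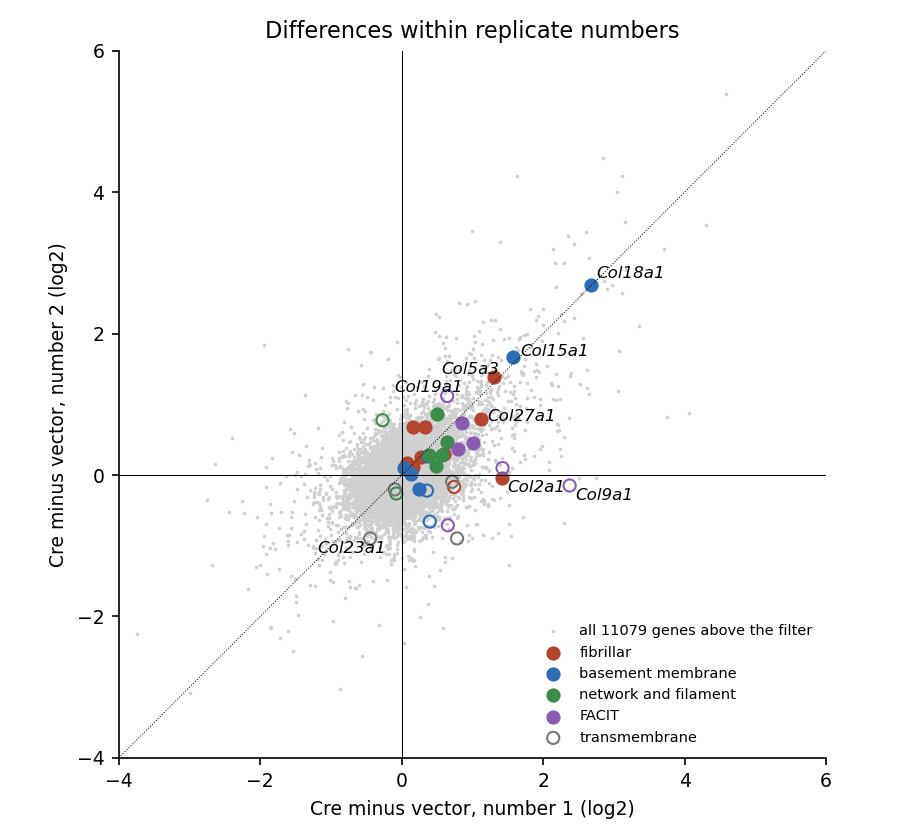
Cre minus vector difference (log2) within number 1 on the horizontal axis and within number 2 on the vertical axis. Grey points are the 11079 genes above the filter, coloured points are the 36 collagen genes by class, filled above the filter and open below it, and the dotted line marks equal differences. Of the filled points, 21 of 23 are positive on both axes, and Col18a1, Col15a1 and Col5a3 lie close to the line, while Col2a1 and Col9a1 are high in number 1 alone.

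Of the network and filament genes, the type VI chains lay modestly higher. Type VI collagen forms beaded filaments around adipocytes and many other cells. Col6a2 read 4983 and 4331 units in the vector arrays and 7877 and 6122 in the Cre arrays, with no overlap, a difference of 0.56 ± 0.21 that rose in the paired model (limma adjusted p = 0.0142). Its second probe set differed by 0.48 and did not pass (limma adjusted p = 0.143 in the paired model). Col6a3 read 5710 and 6095 against 8695 and 7523 units (0.43 ± 0.15) and lay just outside the threshold in the paired model (limma adjusted p = 0.0505). Col6a1 read 5391 and 4587 against 7166 and 5658 units (0.34 ± 0.21; limma adjusted p = 0.113 in the paired model). The 3 chains thus differed by 0.34 to 0.56, and the difference between them was not tested. Col6a1, Col6a2 and Col18a1 lie near each other on chromosome 10, with 0 protein-coding genes between the type VI pair and 2 between Col6a1 and Col18a1.

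Col8a1, a short-chain collagen of vessel walls and the cornea, read 3415 and 2926 units in the vector arrays and 4769 and 5445 in the Cre arrays. The groups did not overlap on any of its 3 probe sets, which differed by 0.68, 0.49 and 0.63. It rose in the paired model on the brightest of them (limma adjusted p = 0.0132) and not on the mean of the 3 (0.112). Col7a1, the anchoring fibril collagen below epithelia, read 1217 and 2108 units against 1637 and 2275, and parted by number rather than by Cre (0.30 ± 0.33).

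The FACIT genes above the filter were all higher in both numbers. Col16a1 read 1736 and 1179 units in the vector arrays and 3032 and 1987 in the Cre arrays. The groups did not overlap, with folds of 1.81 and 1.67 in numbers 1 and 2. The difference was 0.80 ± 0.31 (limma adjusted p = 0.999) and rose in the paired model (limma adjusted p = 0.011). Col12a1, a fibril-bound collagen of tendon and dense tissue, read 727.5 and 652 against 1233 and 848 units without overlap (0.58 ± 0.26; limma adjusted p = 0.118 in the paired model). Its second tested probe set differed by 0.35, and those below the filter by 0.37 and -0.17.

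Col14a1, which binds the surface of fibrils, varied more between the replicate numbers than any other member above the filter. It read 260 and 58.2 units in the vector arrays and 524 and 90.5 in the Cre arrays, so number 1 lay above number 2 in both groups. The difference of number 2 minus number 1 was -1.57 in the vector arrays and -2.13 in the Cre arrays, against 0.73 ± 0.80 between the groups. Col14a1 did not pass with pairing (limma adjusted p = 0.139), and its other probe sets differed by 0.29 and 0.003.

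Within each group, number 2 lay below number 1 for 16 of 23 genes (35.3% of all genes) and above it for 5 (37.2%). The 5 were Col4a1, Col4a2, Col4a6, Col15a1 and Col7a1. Both number 2 arrays lay below both number 1 arrays for 6 genes (25.0% of all genes) and above them for 4 (28.5%), shares near or below those of all genes. On both the normalized and the deposited scale this held for Col3a1, Col11a1 and Col14a1 among the lower and for Col4a1, Col4a2 and Col7a1 among the higher. Col1a1, Col1a2, Col6a1 and Col4a6 were parted by number after normalization and not as deposited. Numbers 1 and 2 also differed in Xist, and the part of that difference in these levels was not tested.

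**Figure D3:**
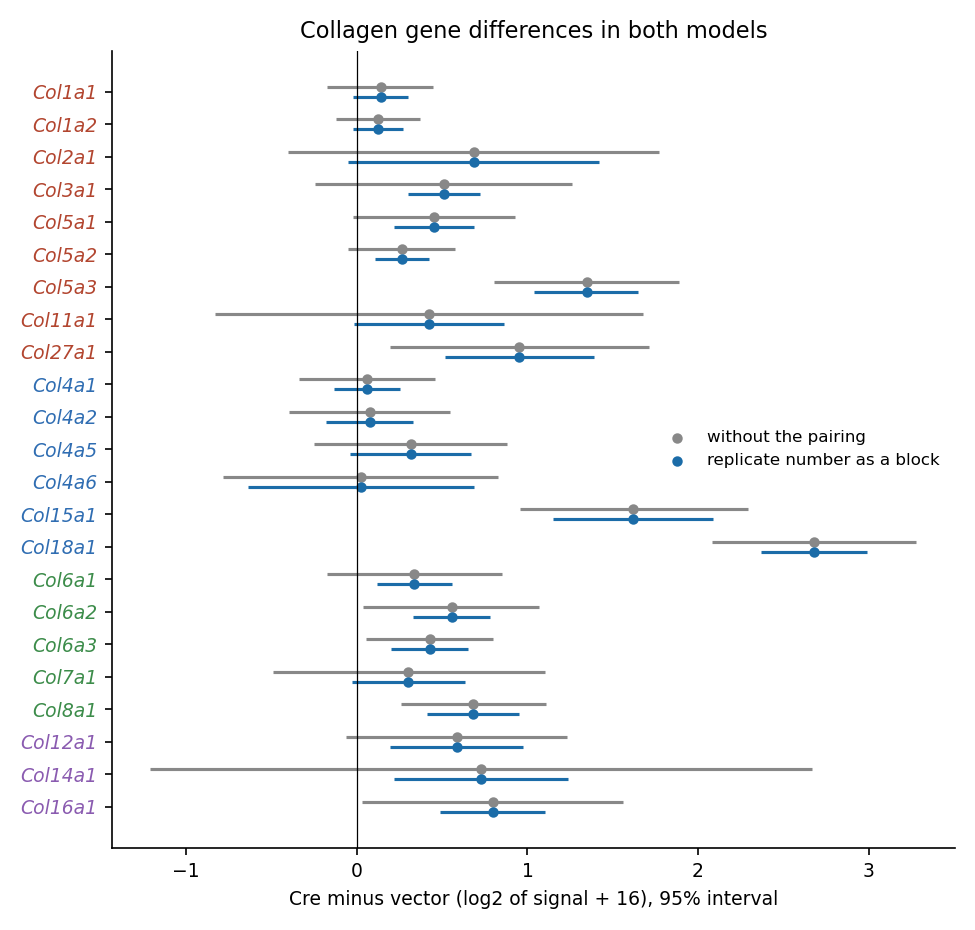
Cre minus vector difference (log2 of signal + 16) of the 23 collagen genes above the filter, with 95% intervals from limma. Grey marks the unpaired model and blue the paired one. The 2 models give the same differences. The intervals for Col18a1, Col15a1, Col5a3, Col27a1, Col8a1, Col6a3, Col6a2 and Col16a1 stay above 0 in both, and that of Col14a1 is the widest without the pairing.

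The 13 genes below the filter gave readings from 1.3 to 147.6 units on their brightest probe sets and were not tested. After normalization both Cre arrays were higher for 2 of them and lower for 3, beside 18.0% and 13.6% of all genes on the array. With 13 genes these counts lie near those shares. Col19a1 read 14.5 and 9.5 against 40 and 37.5 units, although another of its probe sets differed by -0.56, and Col9a3 read 9.1 and 15.4 against 65 and 18.2. After normalization both Cre arrays were lower for Col8a2, Col17a1 and Col23a1, with differences of -0.17, -0.15 and -0.67, and for Col8a2 the deposited signals overlapped. Col23a1, a transmembrane collagen, read 44.6 and 44.4 units in the vector arrays and 35.1 and 18.4 in the Cre arrays. The epidermal collagen gene Col17a1 stayed at or below 3.6 units in every array.

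Several collagens known from cartilage were highest in the Cre 1 array, which also had the highest median signal (78 units). This was not particular to them, since Col1a1, Col1a2, Col3a1 and Col6a2 were highest there too. Col10a1, another cartilage collagen gene, went otherwise, at 25.6 and 3.2 units in the vector arrays and 23 and 15.3 in the Cre arrays. The brightest probe set of Col9a1 read 12.1 and 25.2 units in the vector arrays, 148 in Cre 1 and 22.3 in Cre 2, and its other probe set read 40.8 and 9.3 against 91.8 and 7.1, with number 1 above number 2. Col11a2 followed the numbers too, at 59.5 and 5.9 units in the vector arrays and 122 and 4.0 in the Cre arrays. Col9a3 and, above the filter, Col2a1 were also highest in Cre 1. Of the 6 chondrocyte markers, Acan, the cartilage proteoglycan gene, read 76.5 and 6.3 against 360.1 and 93.2 units. Its difference was 2.17 (limma adjusted p = 0.00181 in the paired model). Acan passed the filter only through its Cre arrays. Its mean log2 level was 5.51 in the vector arrays and 7.68 in the Cre arrays, beside a filter level of 6.26. Its p is therefore not separate from the filter and is not support for a rise. Sox9, the transcription factor of chondrocytes, read 287.5 and 250.5 against 135 and 99.5 and fell in the paired model (difference -1.16, limma adjusted p = 0.0159). The other 4, Matn1, Matn3, Comp and Hapln1, lay below the filter, at 7 to 73.4 units, and the summed signal of the list was 499 and 416 in the vector arrays and 650.2 and 283 in the Cre arrays. The part of these markers in the collagen readings was not tested.

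Probe sets of 1 gene agreed in direction more than in size. Of the 40 collagen probe sets above the filter, 39 had a positive difference (46.4% of all 22519 probe sets tested), the exception being the dimmer one of Col4a1 at -0.003. In 20 of the 40 both Cre arrays lay above both vector arrays (14.2% of probe sets). In the paired model 14 of the 40 rose (2.29%) and 0 fell (0.853%), and unpaired 0 passed (0.00888% of probe sets higher and 0.0% lower). For 6 of the 14 genes with several such probe sets the brightest gave the smallest difference: Col1a1, Col1a2, Col3a1, Col5a2, Col11a1 and Col27a1. All of these are fibrillar genes. The dimmer probe set gave 1.04 beside 0.51 for Col3a1, 0.71 beside 0.26 for Col5a2 and 1.10 beside 0.42 for Col11a1. Whether bright probe sets understate a change was not tested.

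**Figure D4:**
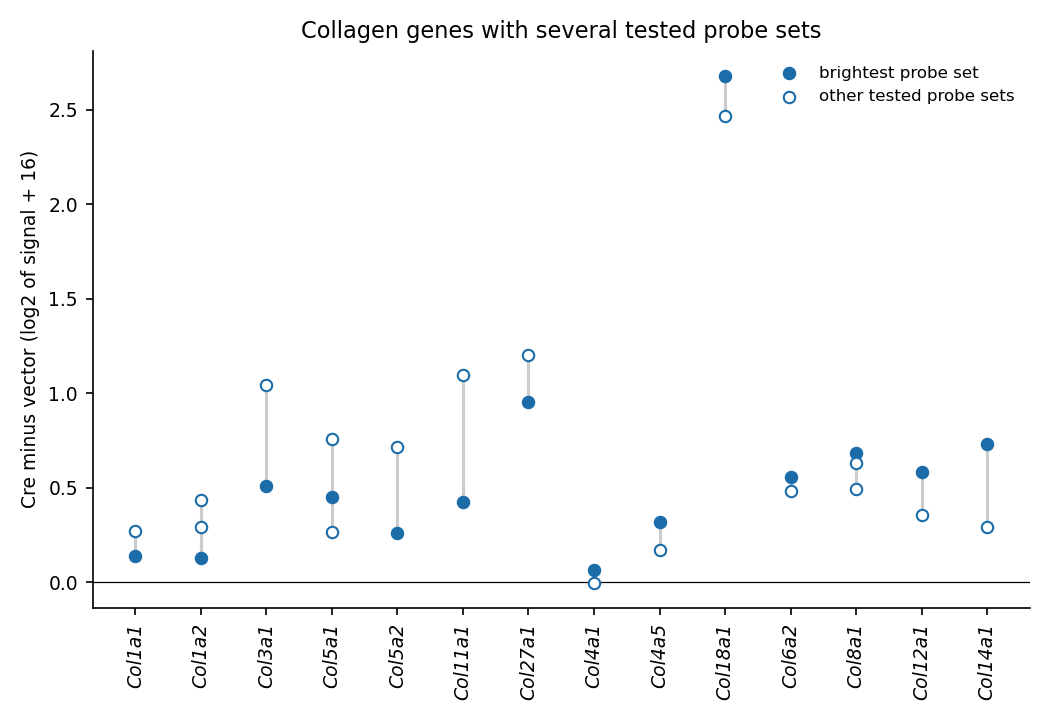
Cre minus vector difference (log2 of signal + 16) of every probe set above the filter, for the 14 collagen genes with several of them. Filled points are the brightest probe set of a gene and open points the others. The filled point is the lowest for 6 fibrillar genes, and the points of Col18a1 lie at 2.68 and 2.47.

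Genes that make, process, bind and cleave collagen were read from 7 lists. Of 38 such genes above the filter, 29 had a positive difference (51.1% of all genes), with a median of 0.21, and they were not tested against the collagens. Without the pairing 0 passed in either direction. In the paired model 4 rose and 0 fell (3.25% and 0.984% of genes). Where genes were read as the mean of their probe sets, 2 rose (2.34% of genes), so some of these calls depend on the probe set.

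Of the enzymes that act inside the cell, 0 passed in either model. Prolyl hydroxylases and their partners, which make the helix stable, had a median of 0.15 over 10 genes. P4ha2, a catalytic subunit, read 1833 and 1768 units in the vector arrays and 2261 and 2350.4 in the Cre arrays (0.36 ± 0.19), and Crtap, part of the prolyl 3-hydroxylase complex, differed by 0.22 ± 0.14. Among lysyl hydroxylases and glycosyltransferases, Plod1 read 1082 and 1097 against 1653 and 1424 (0.53 ± 0.22; limma adjusted p = 0.111 in the paired model) and Colgalt1 differed by 0.23 ± 0.15. Among chaperones and export genes, Creb3l1, a transcription factor known to act on collagen genes, read 2081 and 1756 against 3488 and 2201 (0.55 ± 0.29; limma adjusted p = 0.0797 in the paired model), and the foldase gene Fkbp14 differed by 0.37 ± 0.38. Serpinh1, the collagen chaperone HSP47, named after its value was seen, differed by 0.07 ± 0.16.

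Outside the cell, propeptide processing genes had the largest median, 0.69 over 4 uneven genes. Pcolce, the brightest, read 15823 and 13588.5 units in the vector arrays and 16473 and 15457 in the Cre arrays (0.035). Bmp1 differed by 0.31 ± 0.20, and neither of these passed. Tll1, a protease of the BMP1 family that cuts the C-propeptide, read 564 and 331.5 units in the vector arrays and 1137 and 828 in the Cre arrays. The groups did not overlap, and Tll1 rose in the paired model (1.14 ± 0.30; limma adjusted p = 0.00493 there). Pcolce2, an enhancer of that cleavage, read 980 and 2302 against 2761 and 3471, and rose there too (1.07 ± 0.41; limma adjusted p = 0.0164). Without vector 1 its difference was 0.45 and without vector 2 it was 1.69.

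Among lysyl oxidases, which cross-link the fibres, 0 of 4 passed. Loxl4 read 251 and 353 units against 452 and 472 (0.59 ± 0.30), and Loxl1 differed by 0.21 ± 0.30. Lox, named after its value was seen, went the other way (-0.41 ± 0.34). It read 7925 and 7625 against 8448 and 4188 units, a difference of 0.05 in number 1 and -0.86 in number 2. Of 5 collagen receptor genes 0 passed. Ddr1, a collagen-binding tyrosine kinase, differed by 0.75 ± 0.68, and Mrc2, which takes up collagen fragments, read 1271 and 1163 against 930 and 640 units (-0.61 ± 0.26; limma adjusted p = 0.0925 in the paired model).

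Among the proteases that cleave collagen, 2 of the 4 above the filter rose in the paired model (3.25% of all genes). Mmp1a, Mmp8, Mmp9 and Mmp13 lay below the filter and were not tested. Mmp13 read 72.1 and 9.5 units in the vector arrays and 417 and 8.1 in the Cre arrays. Mmp14, a membrane collagenase, read 4785 and 4148 units in the vector arrays and 6887 and 5641 in the Cre arrays (0.48 ± 0.20; limma adjusted p = 0.03 there). Fap, a fibroblast serine protease, read 307 and 29.6 against 894 and 88.6, so that the numbers differed more than the groups, and it rose within both (1.36 ± 1.14; limma adjusted p = 0.00777 in the paired model). Leaving out 1 array moved Fap from -0.12 (without Cre 1) to 2.84 (without Cre 2), with 0.09 without vector 2 and 2.63 without vector 1, and moved Mmp14 to 0.27 without Cre 1.

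**Figure D5:**
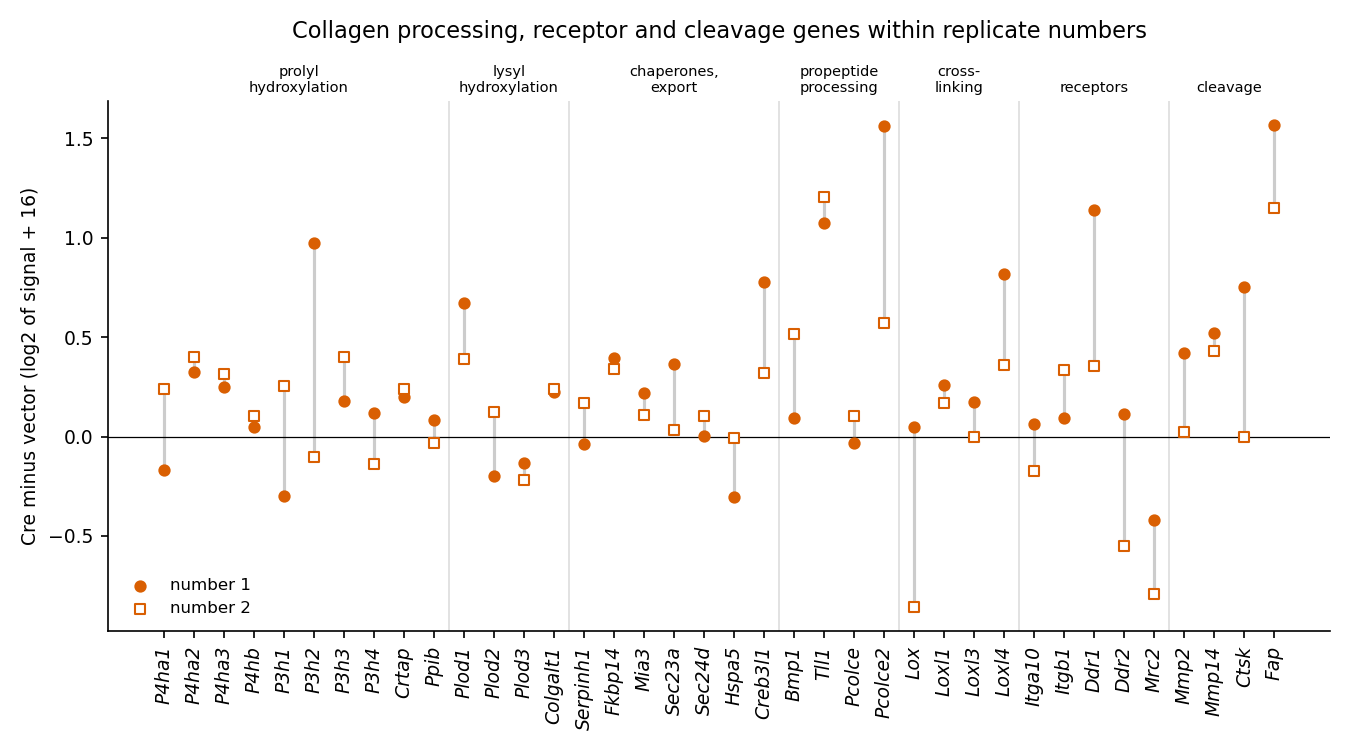
Cre minus vector difference (log2 of signal + 16) of the 38 collagen processing, receptor and cleavage genes above the filter, by list, with number 1 as filled circles and number 2 as open squares. The line joins the 2 differences of a gene. Tll1, Pcolce2, Mmp14 and Fap, which rose in the paired model, are positive in both numbers, and Mrc2 is negative in both.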

How the data were processed

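The authors deposited 1 signal intensity per probe set and array on a linear scale, made with MAS5 per the submitters' processing notes, whose version is not given in the sources used here. Each array had a mean of 500 after trimming 2% from each end. Of 45101 probe sets, 64 controls were left out, 34945 carried 1 gene symbol in the platform annotation, 932 several and 9160 none; IDs of 34741 matched RefSeq annotation of GRCm38.p6, through which symbols were updated.

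Intensities were quantile normalized and taken as log2(signal + 16). The 22519 probe sets whose mean reached the 50th percentile were tested in limma 3.58.1 under R 4.3.3 (lmFit, then eBayes with trend), and p-values were adjusted by Benjamini-Hochberg over all of them at 0.05. A gene was read by its brightest probe set with 1 symbol. Arrays were grouped by their titles. The scripts were tested on simulated data. Precision is limited by the number of arrays.

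The correlation of deviations from the group means between same-numbered arrays was 0.603 over probe sets, and Xist parted the numbers, so same-numbered arrays were treated as pairs of 1 origin, which the labels do not state. The paired model has 1 residual and 9.81 prior degrees of freedom, the other 2 and 4.1.

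The rule for members uses gene symbols only, but members and lists were proposed with earlier results of these data known. All members were to be described, and from each of 7 pathway lists the 2 genes with the smallest p in the paired model. Serpinh1, Lox, Bmp1 and Pcolce were added after their values were seen. Pathway genes such as Fkbp10, Adamts2 and Itga11 had no probe set with 1 symbol in the annotation used and were not analysed here. Alternatives were pseudocounts of 1 and 64, no filter or a 75th percentile filter, median centring, scaling as deposited, eBayes without trend or robust, the replicate block, leaving out each array, leaving out probe sets that can match several transcripts and, added later, gene means.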

Additional observations from a re-analysis of the deposited data

Results flagged for a closer look

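For Col2a1 and Col4a6 the difference had opposite signs in replicate numbers 1 and 2. Col2a1 gave 1.41 in number 1 and -0.05 in number 2, a gap of 1.46 on the log2 scale, and Col4a6 gave 0.24 and -0.19, a gap of 0.43. With 1 array of each kind per number, the gap itself was not tested.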

How the results depend on the processing

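All 23 collagen genes above the filter kept a positive difference with pseudocounts of 1 and 64, no filter, the deposited scaling, eBayes without the trend or robust, the replicate block, and with probe sets of possible multiple matches left out; 17 were left under the 75th percentile filter, all positive. With median centring, which moved the median of all genes to -0.09, Col4a1 (-0.012) and Col4a2 (-0.045) turned, and all 23 stayed above that median. With 1 array left out the replicate numbers are unbalanced and 1 residual degree of freedom remains, with the lone array assumed to vary like the other group. Differences that changed sign then ran from -0.10 to 0.23 for Col4a1, -0.092 to 0.24 for Col4a2, -0.26 to 0.31 for Col4a6, -0.094 to 0.70 for Col7a1, -0.26 to 1.11 for Col11a1 and -0.34 to 1.79 for Col14a1, while Col3a1 ran from 0.071 to 0.95 and Col18a1 from 2.50 to 2.86. The collagen median ran from 0.23 to 0.69. Collagen genes called higher ran from 0 to 1 (Col18a1 alone), and probe sets called over the whole table from 7 to 28 higher and 0 to 3 lower.

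Over the whole table limma called 2 probe sets higher and 0 lower without the pairing. It called 1 higher with a pseudocount of 1, with the 75th percentile filter or with those of possible multiple matches left out, 0 with no level filter or without the trend, and 14 higher and 2 lower with median centring. With the replicate number as a block it called 516 higher and 192 lower, 9 collagen genes higher and 4 processing, receptor or cleavage genes higher. With that block and the mean of a gene's tested probe sets the last 2 counts were 6 and 2. The cause of these changes was not tested. No other collagen or pathway count changed, and the block left 14 of 23 collagen genes on the same side of the threshold.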
